A study of Mus musculus with 12 samples.

Results

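The genes described here are 10 regulators of the G1 phase and of entry into S phase, chosen by symbol from the 51826 genes in the count tables. They are the D-type cyclins Ccnd1, Ccnd2 and Ccnd3, the E-type cyclins Ccne1 and Ccne2, the kinases Cdk4, Cdk6 and Cdk2, and the pocket proteins Rb1 and Rbl1. Messenger RNA was counted by 3′ sequencing in 12 libraries from 19DN, a mouse B cell lymphoma subline that lost the GFP and hCD2 reporters of its parent 19PP. That parent arose in a Rag2-/-γC-/- mouse, a host without lymphocytes of its own. The mouse had been given bone marrow carrying Cγ1-Cre and Myc/P110*flSTOP. These are a Myc transgene and an active PI3K subunit, switched on by a Cre that works in germinal centre B cells. All groups share this origin, and whether 19DN cells still express either transgene was not tested. The cells carried RPL12, a protein of the large ribosomal subunit, as wild type (WT), with serine 38 replaced by alanine (S38A) or with serine 38 replaced by aspartate (S38D). Each line was sampled as asynchronous culture and as mitotic cells, which had spent 8 h in nocodazole at 100 ng/mL, a drug that takes microtubules apart, and 10 min in fresh medium after it was washed out. Cells of all 6 groups were harvested in cycloheximide, a blocker of translation, at 100 µg/mL, and each group had 2 libraries. How the mutant lines were made and how many clones each holds is not given in the sources used here, and neither is whether the replicates came from separate cultures, so a p-value here measures the spread between samples that may be no more than technical repeats. The counts carry no sequence, so the RPL12 substitutions were not checked.

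In a cycling cell, growth signals raise the D-type cyclins, which join CDK4 or CDK6 and begin to phosphorylate the pocket proteins RB1 and RBL1 (p107). The phosphorylated pocket proteins let go of E2F transcription factors, whose targets include Ccne1, Ccne2 and the genes of DNA replication, and cyclin E with CDK2 then carries the phosphorylation further. B cells rely mainly on cyclins D2 and D3: Ccnd2 is a target of antigen receptor and PI3K signals and is repressed by FOXO factors, and Ccnd3 is needed for germinal centre B cells to keep dividing.

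Reads assigned to genes numbered from 3432875 to 6587997 per library. Of the 10 genes, 9 passed the filter on low counts, with 312 reads over the 12 libraries for Rb1 and 24864 for Ccnd3 as the extremes, and Ccnd1 with 11 reads did not. Levels are given as CPM, a gene's read count relative to a fixed library total after TMM scaling, and differences as log2 fold changes with a standard error (SE) from edgeR's quasi-likelihood test. A gene is called at an adjusted p under 0.05, Benjamini-Hochberg over the 10477 genes tested in a comparison, and every adjusted p below comes from edgeR unless another tool is named. A fold change is relative to the genes as a whole. Scaling to the ERCC spike-in RNA instead moved the median of all genes from -0.02 to -0.20 in the mean mitotic comparison. It moved to -0.46 for the mitotic change in WT, and in asynchronous cells to -0.47 for S38A and -0.38 for S38D against WT. Each of these comparisons uses the WT asynchronous libraries, whose spike-in reads were the lowest. They were 2.705% and 2.29% of gene reads there, against 2.831% to 3.601% in the other libraries. Every library is labelled with 1 µg of total RNA, so spike-in scaling was not shown to be per cell. The replicates of S38D asynchronous cells and of WT mitotic cells stood furthest apart, at 24.3 and 15.1 on either side of zero on an axis that held 69.6% of the variance within groups, with replicate 1 on the same side in both. The axis does not say which library of a pair departs, and results are also given without both of these replicate 1 libraries, S38D asynchronous and WT mitotic. Of 8 B lineage markers 7 had a mean of at least 10 reads, and their summed level ran from 2220 to 3080 CPM in asynchronous and from 1290 to 1950 in mitotic libraries. Of 8 T and NK cell markers 6 were at 0 and the sum of the list reached 0.904 CPM at most, and the 7 myeloid markers, 3 of them at 0, reached 2.29. The 7 stromal and epithelial markers, 2 of them at 0, summed to between 26 and 110 CPM in asynchronous and between 15.7 and 78.3 in mitotic libraries, most of it from Pecam1. These sums also moved with the line. In asynchronous cells the stromal and epithelial list summed to 26 and 27.4 CPM in WT, 93.7 and 110 in S38A and 32.9 and 34.4 in S38D, and in mitotic cells to between 75 and 78.3 in S38A and at most 22.1 in the other lines. Both tested genes of that list were called higher in asynchronous S38A than in WT cells, and 1 of them in mitotic cells. Of all genes 11.7% and 8.31% were called higher in these comparisons. B lineage markers summed to 2219 to 2333 CPM in asynchronous WT, 3044 to 3078 in S38A and 2802 to 2987 in S38D. Of the 7 tested, 5 were called higher in asynchronous S38A than in WT, where 11.7% of all genes were. On the mean of the 3 lines 6 of the 7 were called lower in mitotic cells and 0 higher, beside 21.6% and 20.5% of all genes. The part of these shifts in the results below was not tested.

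On the mean of the 3 lines, 3 of the 9 tested genes changed between asynchronous and mitotic cells. Cdk6 and Rb1 fell and Ccnd2 rose, that is 1 of 9 higher and 2 of 9 lower. Line by line, Cdk6 was called in each, Rb1 only in WT and Ccnd2 only in S38D. Ccnd3, not called on the mean, was called higher in WT (0.59, adjusted p = 0.0043). Over all genes 20.5% were called higher and 21.6% lower in the mean comparison, so the share of the 9 genes that changed was near the background. In bulk RNA, fewer cells with a transcript and less of it per cell cannot be told apart. Their median log2 change was -0.01, beside -0.02 for all genes. The other 6 genes, which include the major D cyclin Ccnd3 and both E cyclins, were not called on the mean of the 3 lines. Their log2 changes there ran from -0.35 for Cdk2 to 0.13 for Ccnd3.

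**Figure D1:**
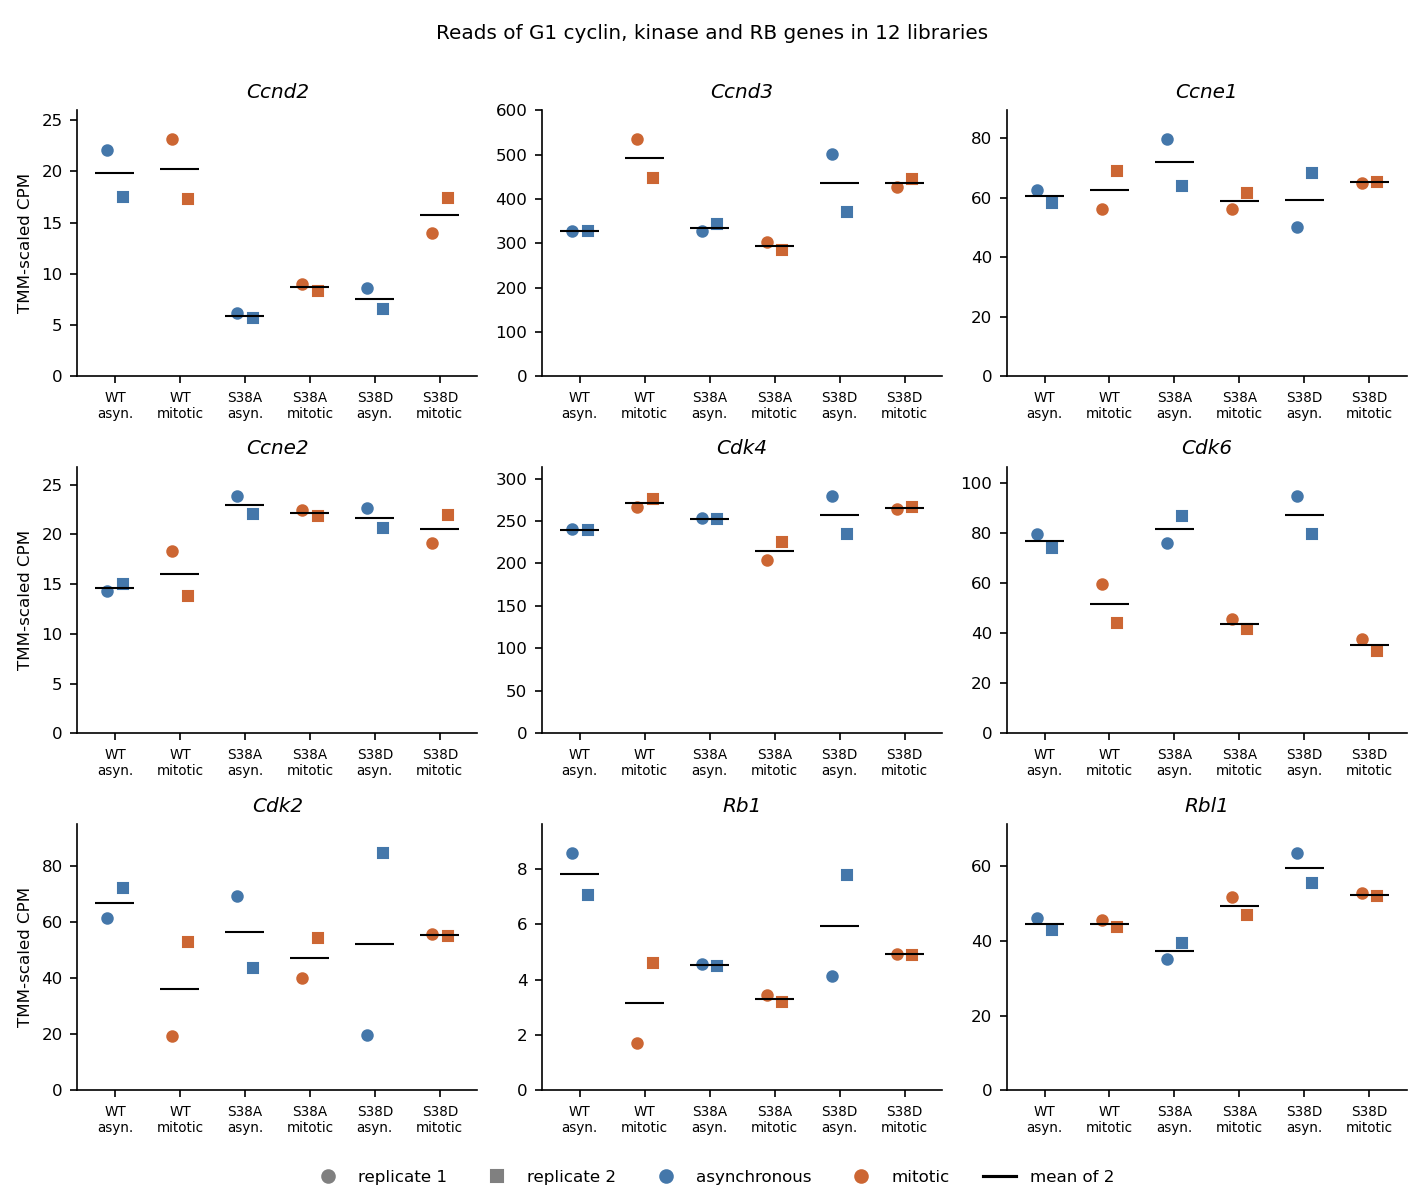
Level of 9 genes in each of 12 libraries, in TMM-scaled CPM on axes that start at 0. Circles are replicate 1, squares replicate 2, blue asynchronous, orange mitotic, and bars the mean of 2. Each of the 6 mitotic libraries lies below all asynchronous ones for Cdk6, Ccnd2 lies low in both groups of S38A and in asynchronous S38D, and the replicates of Cdk2 lie far apart in WT mitotic and S38D asynchronous cells.

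Ccnd2 encodes cyclin D2 (chr6:127125162-127152193, minus strand, GRCm38). In asynchronous cells it stood at 22.1 and 17.5 CPM in WT, 6.13 and 5.68 in S38A, and 8.58 and 6.53 in S38D. Its mitotic values were 23.2 and 17.3 CPM in WT, 9.02 and 8.32 in S38A, and 14 and 17.4 in S38D. Every asynchronous library of either mutant line lay below every WT library. Among mitotic cells S38A lay below both other lines, while the higher S38D library passed the lower WT library.

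Against WT, Ccnd2 was lower in both mutant lines in asynchronous cells, with a log2 difference of -1.75 for S38A (SE 0.242, adjusted p = 0.00011) and -1.39 for S38D (SE 0.235, adjusted p = 0.0016). It was also lower in mitotic S38A cells, by a log2 difference of -1.23 (SE 0.231, adjusted p = 0.0017). In mitotic S38D cells the difference from WT was -0.37 (SE 0.219, adjusted p = 0.39), and Ccnd2 was higher there than in mitotic S38A cells by 0.86 (SE 0.234, adjusted p = 0.019). Between the mutant lines the difference in asynchronous cells was not called, at 0.36 for S38D against S38A (SE 0.257, adjusted p = 0.47), though their libraries did not overlap. With only the WT and S38D groups compared, the S38D difference in asynchronous cells was -1.43 and not called (adjusted p = 0.075). The mitotic difference of S38D from S38A was not called by DESeq2 (adjusted p = 0.11), nor without either S38A mitotic library (0.93 and 0.81, adjusted p = 0.076 and 0.12) or S38D mitotic replicate 2 (0.68, adjusted p = 0.19).

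Ccnd2 rose from asynchronous to mitotic cells by 0.54 over the 3 lines (SE 0.137, adjusted p = 0.0045), and this call held under every other setting tried. The rise was called in S38D, at 1.05 (SE 0.236, adjusted p = 0.0037), where both mitotic libraries lay above both asynchronous ones. In S38A the change was 0.55 (SE 0.255, adjusted p = 0.17) and in WT, where the states overlapped, 0.03 (SE 0.218, adjusted p = 0.94). The difference between S38D and WT in this change was 1.02 (SE 0.321, adjusted p = 0.13) and was not called. Without S38D mitotic replicate 2 the change in S38D was 0.87 (adjusted p = 0.062). The antisense gene Gm43126, which runs over the last stretch of Ccnd2 on the opposite strand, had 0 reads.

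Ccnd3 encodes cyclin D3 (chr17:47505051-47599691, plus strand) and held nearly all D-type cyclin reads. In asynchronous cells it stood at 327 and 327 CPM in WT, 327 and 343 in S38A, and 501 and 371 in S38D. Its mitotic values were 536 and 447 CPM in WT, 302 and 285 in S38A, and 426 and 445 in S38D. Both WT mitotic libraries lay above both WT asynchronous ones, the S38A mitotic libraries were the lowest of all 12, and the asynchronous S38D replicates stood furthest apart.

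Ccnd3 rose in mitotic WT cells by 0.59 (SE 0.132, adjusted p = 0.0043), and was not called in S38A, at -0.19 (SE 0.131, adjusted p = 0.37), or S38D, at 0.00 (SE 0.131, adjusted p = 0.99). In mitotic cells it was lower in S38A than in WT by -0.74 (SE 0.132, adjusted p = 0.0011), a call that held under every other setting, and higher in S38D than in S38A by 0.57 (SE 0.132, adjusted p = 0.0073). The difference in mitotic change between S38A and WT was -0.78 (SE 0.186, adjusted p = 0.058), which edgeR did not call and DESeq2 called (adjusted p = 0.021). Under spike-in scaling the WT rise was 0.14 (adjusted p = 0.43), and without WT mitotic replicate 1 it was 0.48 (adjusted p = 0.057). In asynchronous cells S38D was not called against WT (0.42, SE 0.132, adjusted p = 0.059), and the value was 0.20 without S38D asynchronous replicate 1 (adjusted p = 0.34) and 0.66 without replicate 2 (adjusted p = 0.00011). The difference of mitotic S38D from S38A was not called without S38A mitotic replicate 2 (0.54, adjusted p = 0.073) or S38D mitotic replicate 2 (0.53, adjusted p = 0.076). Bysl, a ribosome biogenesis gene on the opposite strand whose end overlaps that of Ccnd3, had 5988 reads and rose in mitotic WT cells by 0.63 (SE 0.141, adjusted p = 0.0043), and as the strand setting of the counting is not given, reads of these genes cannot be told apart where they overlap. In the mitotic comparison of S38A with WT, Bysl differed by -0.12 (SE 0.138, adjusted p = 0.62).

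Ccnd1, cyclin D1 (chr7:144929931-144939925, minus strand), was nearly absent. The 6 asynchronous libraries held 1 read in all, in S38D replicate 1, and the 5 without a read allow levels of up to 0.455 to 0.874 CPM before TMM scaling, taking 3 reads as the limit that 0 allows. The mitotic libraries held 3 and 2 reads in WT, 1 and 2 in S38A, and 1 and 1 in S38D. All 6 mitotic libraries thus had a read and 5 of 6 asynchronous ones had none, a ratio of 10.6 per gene read (95% exact binomial interval 1.51 to 460, for counting error only). At 10 reads against 1 this is not a measured level, and LTO1, on the opposite strand over the end of Ccnd1, had 655 reads.

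Within the D family the Ccnd3 share of reads was 93.7% and 94.9% in asynchronous WT cells, 98.2% and 98.4% in S38A, and 98.3% and 98.3% in S38D. The mitotic values were 95.8% and 96.2% in WT, 97% and 97.1% in S38A, and 96.8% and 96.2% in S38D. The asynchronous mutant libraries thus lay apart from the WT ones, and the spread between the lines was narrower in mitotic cells. These are shares of reads and are compared between libraries, not between genes, and they were not tested.

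**Figure D2:**
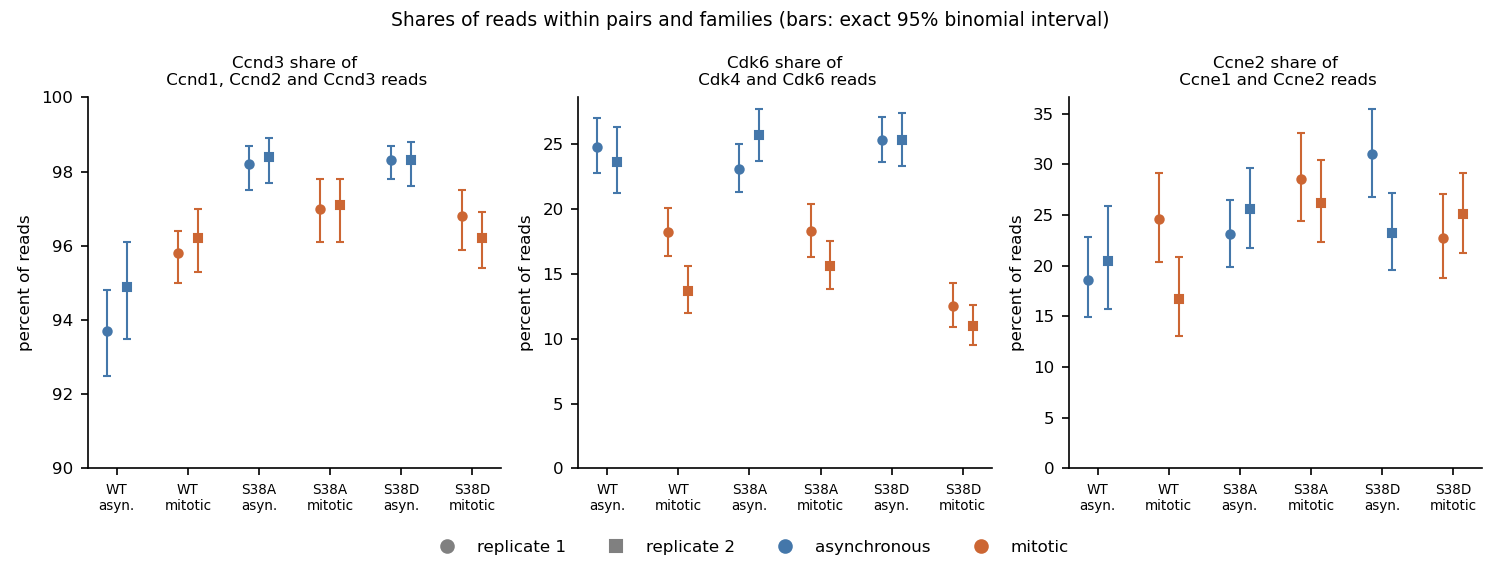
Share of reads within 3 sets of related genes, in percent, for each library, with exact 95% binomial intervals that cover counting error only. The Ccnd3 axis starts at 90%. The Cdk6 share lies between 23.1% and 25.7% in the 6 asynchronous libraries and between 11% and 18.3% in the 6 mitotic ones, and the Ccnd3 share is lowest in asynchronous WT cells.

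The E cyclins were called in 1 comparison, Ccne2 in asynchronous S38A cells. Ccne1, cyclin E1 (chr7:38097984-38107534, minus strand), ranged from 50.2 to 79.8 CPM in asynchronous libraries, with a median of 63.3, and from 56 to 68.8 in mitotic ones, with a median of 63.2. All 6 groups overlapped their neighbours in the order of levels, from a mean of 71.9 CPM in asynchronous S38A cells (SD 11.1, n = 2) to 58.7 in mitotic S38A cells (SD 3.86, n = 2). Ccne1 was called in none of the 13 comparisons, the largest change being 0.43 for the difference in mitotic change between S38D and S38A (SE 0.23, adjusted p = 0.68).

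Ccne2, cyclin E2 (chr4:11191351-11204779, plus strand), stood at 14.3 and 15.0 CPM in asynchronous WT cells, 23.9 and 22.0 in S38A and 22.6 and 20.6 in S38D. The mitotic values were 18.3 and 13.8 CPM in WT, 22.4 and 21.8 in S38A, and 19.1 and 21.9 in S38D. Every mutant library lay above every WT library, in both states. The difference was called for S38A against WT in asynchronous cells, at 0.65 (SE 0.188, adjusted p = 0.021), and not in the other 3 comparisons with WT, which gave 0.57 for S38D in asynchronous cells (adjusted p = 0.072), 0.45 for S38A in mitotic cells (adjusted p = 0.11) and 0.35 for S38D in mitotic cells (adjusted p = 0.34). The called difference was 0.67 by DESeq2 (adjusted p = 0.12), 0.20 under spike-in scaling (adjusted p = 0.46), and not called with any asynchronous WT or S38A library left out, with adjusted p from 0.051 to 0.14. Between states Ccne2 was not called, at 0.00 over the 3 lines (SE 0.105, adjusted p = 0.98). Ints8, on the opposite strand over the end of Ccne2, had 255 reads and was not called between S38A and WT in asynchronous cells (-1.11, SE 0.632, adjusted p = 0.25). The Ccne2 share of the reads of both E cyclins ran from 16.7% to 31% over the 12 libraries.

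Among the kinases, Cdk6 fell in mitotic cells of every line, while Cdk4, the kinase that joins the same cyclins, was called in none of them between states. Cdk6 (chr5:3341485-3531008, plus strand) stood at 79.7 and 73.9 CPM in asynchronous WT cells, 76.1 and 86.9 in S38A, and 94.9 and 79.6 in S38D. The mitotic values were 59.4 and 44.0 CPM in WT, 45.7 and 41.6 in S38A, and 37.8 and 32.7 in S38D. All 6 mitotic libraries lay below all 6 asynchronous ones.

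The fall of Cdk6 was 0.93 on the log2 scale over the 3 lines (log2 change -0.93, SE 0.0919, adjusted p = 9e-07), and it was -0.57 in WT (SE 0.159, adjusted p = 0.016), -0.90 in S38A (SE 0.158, adjusted p = 0.0011), with the largest fall, -1.31, in S38D (SE 0.161, adjusted p = 2.6e-05). The mean change and those in S38A and S38D were called under every other setting tried, spike-in scaling included, where the mean was -1.10. The WT change was not called without WT asynchronous replicate 1 (-0.51, adjusted p = 0.12) or WT mitotic replicate 2 (-0.37, adjusted p = 0.16). The change was not shown to differ between lines, at -0.74 for S38D minus WT (SE 0.225, adjusted p = 0.13) and -0.33 for S38A minus WT (SE 0.223, adjusted p = 0.43). In asynchronous cells the lines did not differ beyond their spread, and in mitotic cells S38D against WT gave -0.56 (SE 0.163, adjusted p = 0.067). No gene with reads overlaps the end of Cdk6.

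**Figure D3:**
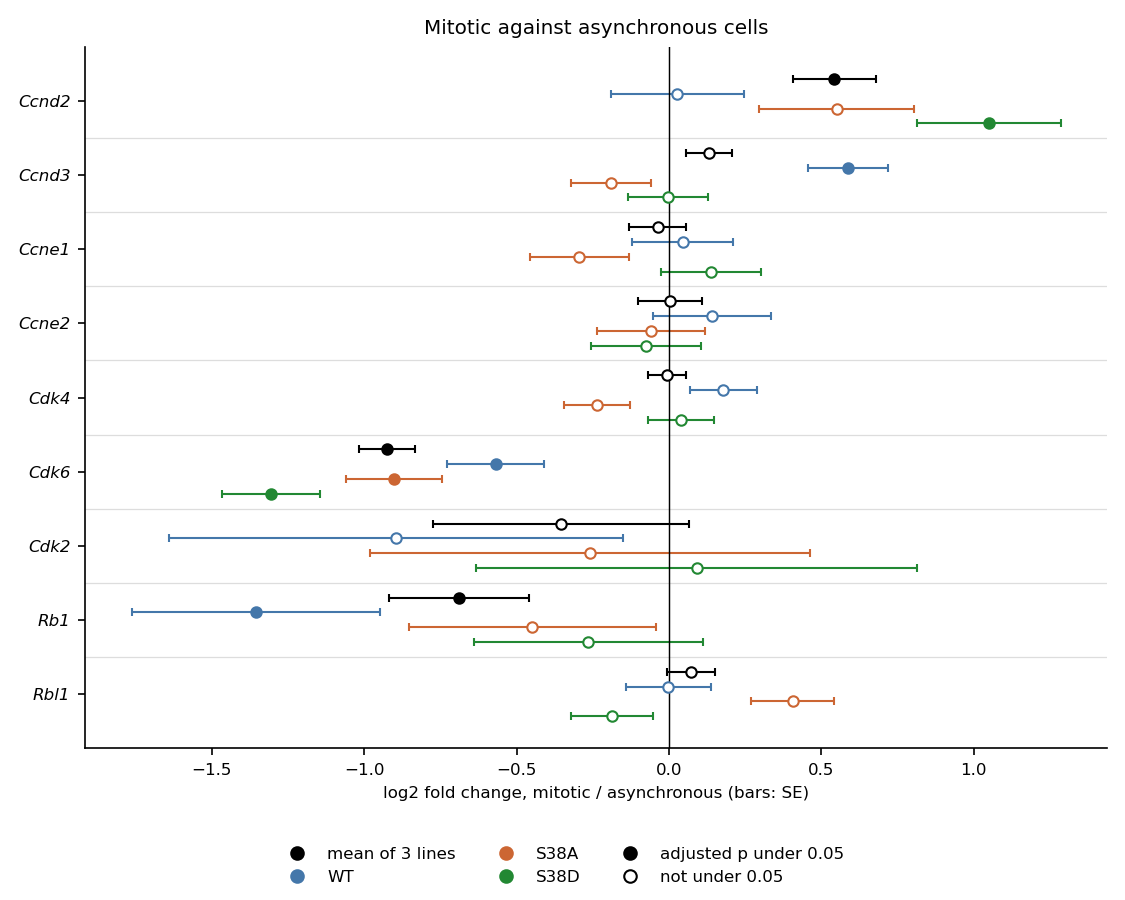
Log2 fold change of mitotic against asynchronous cells for 9 genes, over the 3 lines and in each line, with bars of 1 SE. Filled points have an adjusted p under 0.05. Cdk6 lies below zero in every line, from -0.57 in WT to -1.31 in S38D, Ccnd2 runs from 0.03 in WT to 1.05 in S38D, and Cdk2 has the widest bars.

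Cdk4 (chr10:127063534-127067920, plus strand) stood at 241 and 239 CPM in asynchronous WT cells, 253 and 252 in S38A, and 280 and 235 in S38D. Mitotic cells held 267 and 276 CPM in WT, 204 and 225 in S38A, and 264 and 266 in S38D. The S38A mitotic libraries were the lowest of the 12 and the other groups lay close together. The mitotic change over the lines was -0.01 (SE 0.0628, adjusted p = 0.95). Cdk4 was called in S38A against WT in mitotic cells, at -0.34 (SE 0.109, adjusted p = 0.042), a margin that was lost by DESeq2 (adjusted p = 0.071), with no filter (0.085), under spike-in scaling (0.13), with only the groups compared (0.052) and with most libraries left out, with adjusted p up to 0.28. Tspan31, whose end overlaps that of Cdk4 on the opposite strand, had 0 reads. The Cdk6 share of the reads of both kinases was 24.6% in asynchronous cells (SD 1.05, n = 6) and 14.9% in mitotic cells (SD 3.01, n = 6), with no overlap between states.

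The promoters of both kinases are shown because they differ in the number of E-boxes, the sequence CACGTG that MYC binds with its partner MAX. The parent line came from bone marrow that carried a Myc transgene. The 250 bases before the start of each gene are from RefSeq (GRCm38.p6), 5′ to 3′, with E-boxes in capitals. The RefSeq start of Cdk6 lies inside the span that GENCODE gives the gene.
Cdk4, chr10:127063285-127063534, plus strand: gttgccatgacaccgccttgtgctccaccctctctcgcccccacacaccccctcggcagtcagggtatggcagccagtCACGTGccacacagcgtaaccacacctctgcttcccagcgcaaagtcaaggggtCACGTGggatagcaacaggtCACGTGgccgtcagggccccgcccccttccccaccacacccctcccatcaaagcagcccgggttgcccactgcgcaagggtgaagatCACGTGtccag
Cdk6, chr5:3343643-3343892, plus strand: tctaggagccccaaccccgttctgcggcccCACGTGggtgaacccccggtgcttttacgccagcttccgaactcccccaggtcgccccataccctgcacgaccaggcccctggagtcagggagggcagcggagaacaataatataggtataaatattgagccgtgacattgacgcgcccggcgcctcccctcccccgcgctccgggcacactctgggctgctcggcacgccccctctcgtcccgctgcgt

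The Cdk4 promoter held 4 E-boxes and the Cdk6 promoter 1, and the other 4 genes with an entry, Ccnd3, Ccne1, Cdk2 and Rbl1, held 0. Of 32851 promoters of the same length, 6.02% held at least 1 and 7 held at least 4. CACGTG reads the same on both strands, so each match was counted once. An E2F site, spelled as TTTCCCGC, TTTGGCGC, TTTCGCGC or TTTGCCGC on either strand, occurred once in Cdk2 and once in Rbl1 and in 1.86% of all promoters. A match describes the letters and not binding, which was not measured here.

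Cdk2 (chr10:128697939-128705031, minus strand), the partner of cyclin E, varied widely between replicates. It stood at 61.5 and 72.2 CPM in asynchronous WT cells, 69.2 and 43.6 in S38A, and 19.7 and 84.7 in S38D. Its mitotic values were 19.2 and 53.0 CPM in WT, 40.1 and 54.3 in S38A, and 55.7 and 55.0 in S38D. The lowest values were in replicate 1 of S38D asynchronous and of WT mitotic cells, the groups whose replicates differ most over all genes. Cdk2 was called in none of the 13 comparisons. Its mean mitotic change was -0.35 (SE 0.421, adjusted p = 0.55), and without both of those libraries it was -0.40 (adjusted p = 0.057).

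The pocket proteins differed from each other. Rb1 (chr14:73183673-73325822, minus strand), which holds E2F factors back in resting cells, was the scarcest of the tested genes. It stood at 8.59 and 7.07 CPM in asynchronous WT cells, 4.56 and 4.48 in S38A, and 4.13 and 7.77 in S38D. Mitotic libraries held 1.70 and 4.6 CPM in WT, 3.43 and 3.19 in S38A, and 4.94 and 4.88 in S38D. Mitotic libraries lay below asynchronous ones in WT and in S38A, and overlapped them in S38D.

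Rb1 fell in mitotic cells over the 3 lines, with a log2 change of -0.69 (SE 0.23, adjusted p = 0.023), and in WT with -1.35 (SE 0.408, adjusted p = 0.023). The S38A change of -0.45 (SE 0.406, adjusted p = 0.52) and the S38D change of -0.26 (SE 0.376, adjusted p = 0.65) were not called. DESeq2 called neither of the first pair (adjusted p = 0.12 for both), and the mean change was not called without WT asynchronous replicate 1, S38A asynchronous replicate 1, S38D asynchronous replicate 2, WT mitotic replicate 1, S38A mitotic replicate 2 or S38D mitotic replicate 2, with values from -0.69 to -0.50 and adjusted p from 0.051 to 0.075. The WT change was -1.20 without WT asynchronous replicate 1 (adjusted p = 0.17), -1.47 without WT asynchronous replicate 2 (adjusted p = 0.054), -0.75 without WT mitotic replicate 1 (adjusted p = 0.26) and -0.75 without replicate 1 of both S38D asynchronous and WT mitotic cells (adjusted p = 0.14), and with only the WT groups compared its adjusted p was 0.057. Rcbtb2, on the opposite strand over the end of Rb1, had 2123 reads against 312 for Rb1 and rose in mitotic cells by 0.30 (SE 0.11, adjusted p = 0.038). In asynchronous S38A against WT cells it was lower by -0.86 (SE 0.193, adjusted p = 0.0052). Rb1 gave -0.80 there (SE 0.373, adjusted p = 0.14) and was not called. As with Bysl and Ccnd3, reads of these genes cannot be told apart where they overlap.

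Rbl1 (chr2:157145893-157204534, minus strand), an E2F-regulated pocket protein of cycling cells, stood at 46.1 and 43.0 CPM in asynchronous WT cells, 35.1 and 39.3 in S38A, and 63.6 and 55.4 in S38D. Mitotic cells held 45.5 and 43.6 CPM in WT, 51.6 and 46.9 in S38A, and 52.7 and 51.9 in S38D. Asynchronous libraries of the 3 lines did not overlap, with S38A lowest and S38D highest, and in mitotic cells both mutant lines lay above WT. The difference between S38D and S38A in asynchronous cells was called, at 0.68 (SE 0.136, adjusted p = 0.0057). Neither line was called against WT there, at -0.26 for S38A (SE 0.139, adjusted p = 0.19) and 0.42 for S38D (SE 0.136, adjusted p = 0.067), and the mitotic change in S38A was 0.41 (SE 0.136, adjusted p = 0.056). The called difference had an adjusted p of 0.14 with only the groups compared and was 0.58 without S38A asynchronous replicate 1 (adjusted p = 0.12).

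**Figure D4:**
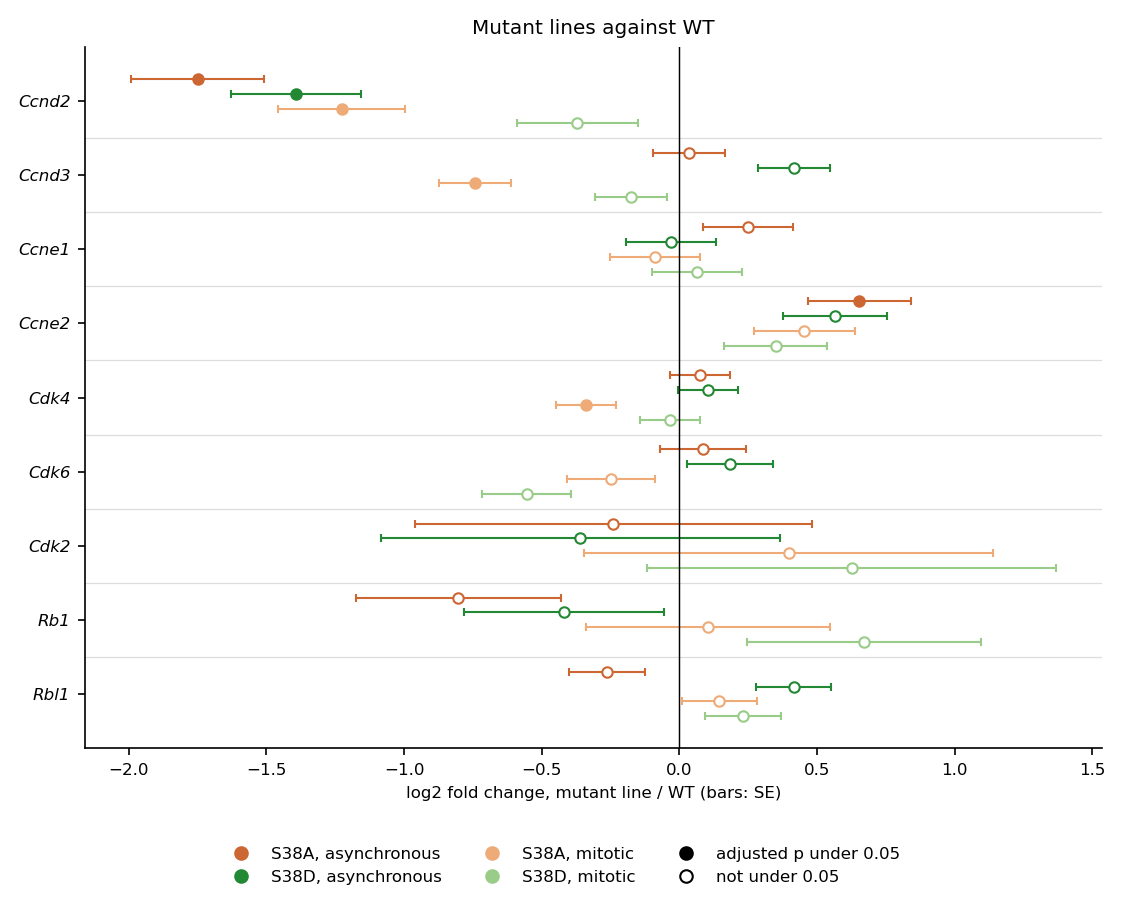
Log2 fold change of S38A and S38D against WT for 9 genes in asynchronous and in mitotic cells, with bars of 1 SE. Filled points have an adjusted p under 0.05. Ccnd2 runs from -1.75 to -0.37. It lies furthest below zero except for S38D in mitotic cells, where Cdk6 lies lower, at -0.56. Ccne2 lies above zero in all 4 comparisons, with 1 of them called.

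Counted over the 9 tested genes, in WT 1 was higher and 2 were lower in mitotic cells, where 13.4% of all genes were higher and 12.7% lower. In S38A 0 were higher and 1 lower, where 6.72% of all genes were higher and 8.06% lower. In S38D 1 was higher and 1 lower, where 11.6% of all genes were higher and 14.8% lower. Between lines in asynchronous cells, S38A against WT gave 1 higher and 1 lower (11.7% and 9.54% of all genes), S38D against WT 0 higher and 1 lower (4.87% and 4.12%), and S38D against S38A 1 higher and 0 lower (3.32% and 3.89%). In mitotic cells, S38A against WT gave 0 higher and 3 lower (8.31% and 8.72%), which were Ccnd2, Ccnd3 and Cdk4, S38D against WT 0 and 0 (1.15% and 3.41%), and S38D against S38A 2 higher and 0 lower (7.51% and 10.2%), which were Ccnd2 and Ccnd3. The count of 0 for S38D against WT is from edgeR, and DESeq2 and limma-voom gave 0 as well, with 1 gene, Cdk6, at an unadjusted p under 0.05. Comparisons that share the WT or the mitotic libraries are not independent of each other.

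Where the mitotic change was compared between lines, edgeR called 0 of the 9 genes each time, against 0.993% of all genes for S38A minus WT, 0.401% for S38D minus WT and 0.0382% for S38D minus S38A. At an unadjusted p under 0.05 there were 2 genes for S38A minus WT (Cdk4 and Ccnd3), 3 for S38D minus WT (Cdk6, Ccnd2 and Ccnd3) and 1 for S38D minus S38A (Rbl1). DESeq2 called 1 of them, Ccnd3 in S38A minus WT, and limma-voom 0.

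Around these genes, the rest of the pathway was counted from lists of textbook members, as a description with no test of a list. The shares to read these counts against are 20.5% of all genes higher and 21.6% lower for the mean mitotic change, 11.7% and 9.54% for asynchronous S38A against WT, and 4.87% and 4.12% for asynchronous S38D against WT. All 20 listed E2F target genes of S phase were tested. Over the 3 lines 13 were lower and 0 higher in mitotic cells, with a median of -0.47 beside -0.02 for all genes. Uhrf1, which carries DNA methylation through replication, fell by 0.92 (SE 0.098, adjusted p = 1.8e-06), Rrm1, the large subunit of ribonucleotide reductase, by 0.77 (SE 0.0856, adjusted p = 2.8e-06) and Cdc6, a loader of the replicative helicase, by 0.65 (SE 0.0681, adjusted p = 1.6e-06). In asynchronous cells 11 of 20 were higher and 0 lower in S38A than in WT (median 0.61), and 6 higher and 0 lower in S38D (median 0.36). In mitotic cells 14 of 20 were higher in S38A than in WT and 1 in S38D, where 8.31% and 1.15% of all genes were higher. Cdc6 stood at 61.1 and 62.5 CPM in asynchronous WT cells, 126 and 135 in S38A and 96.9 and 93.9 in S38D, so the 3 lines did not overlap. Its difference from WT was 1.07 in S38A (SE 0.118, adjusted p = 1.3e-05) and, for S38D, 0.63 (SE 0.118, adjusted p = 0.0034), and Uhrf1 gave 1.36 in S38A (SE 0.167, adjusted p = 3.9e-05) and Mcm5, a helicase subunit, 0.65 in S38D (SE 0.117, adjusted p = 0.0026). Under spike-in scaling the asynchronous counts were 4 higher and 1 lower in S38A (median 0.15) and 0 and 0 in S38D (median -0.03), while all genes moved to -0.47 and -0.38. Of the 10477 genes tested, 202 were called higher and 3115 lower in S38A under this scaling, and 58 and 1307 in S38D. There Cdc6 in S38D was 0.25 (adjusted p = 0.28), as was Mcm5 (adjusted p = 0.23), and with only the S38D and WT groups compared, or without WT asynchronous replicate 1, neither was called in S38D.

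Of 7 CDK inhibitor genes 2 were higher and 3 lower in mitotic cells. Cdkn2c, which encodes the CDK4 and CDK6 inhibitor p18, fell by 1.36 (SE 0.131, adjusted p = 6.5e-07) and Cdkn2d (p19, of the same family) by 0.67 (SE 0.0776, adjusted p = 4.5e-06), and both fell in each line. Cdkn1b (p27) rose by 0.59 over the lines (SE 0.19, adjusted p = 0.019), with 1.19 in S38D (adjusted p = 0.032), 0.65 in S38A (adjusted p = 0.18) and -0.06 in WT (adjusted p = 0.93). In S38D the rise was not called by DESeq2 (adjusted p = 0.18), under spike-in scaling (0.067) or without any one S38D library (0.051 to 0.19). The mean rise was not called by DESeq2 (adjusted p = 0.15), under spike-in scaling (0.11), or without WT asynchronous replicate 1 (0.057), WT mitotic replicate 1 (0.056) or S38D mitotic replicate 2 (0.066). In asynchronous cells Cdkn1b, a target of the FOXO factors that PI3K holds out of the nucleus, stood at 8.20 and 10.8 CPM in WT, 3.30 and 3.27 in S38A and 1.75 and 1.24 in S38D. The 3 lines did not overlap, and the difference from WT was -1.50 in S38A (SE 0.303, adjusted p = 0.0024) and, for S38D, -2.62 (SE 0.344, adjusted p = 0.00017). Cdkn1a (p21) differed by -1.90 in S38D (SE 0.51, adjusted p = 0.029), at 0.795 and 2.12 CPM against 5.66 and 5.09 in WT. It was not called by DESeq2 (adjusted p = 0.10), with robust estimation off (0.051), with only the groups compared (0.16), without either asynchronous WT library (0.21 and 0.10) or without S38D asynchronous replicate 1 (-1.33, adjusted p = 0.19).

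**Figure D5:**
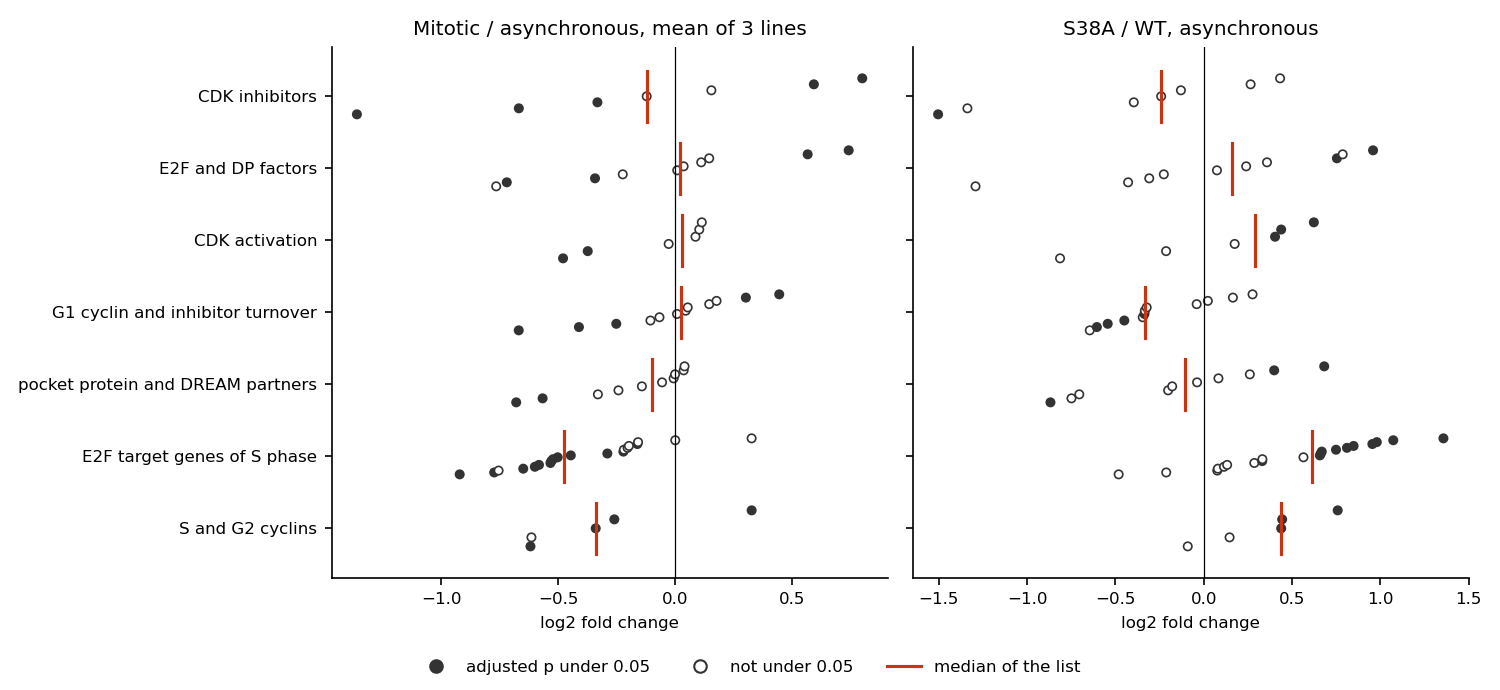
Log2 fold change of each tested gene of 7 pathway lists, in mitotic against asynchronous cells over the 3 lines (left) and in S38A against WT asynchronous cells (right). Filled points have an adjusted p under 0.05 and red bars are list medians. The E2F target genes of S phase have a median of -0.47 on the left and 0.61 on the right, and under spike-in scaling the right-hand median is 0.15.

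Of 10 E2F and DP factor genes 2 were higher and 2 lower in mitotic cells, which is the share of all genes. E2f3, an activator, rose by 0.74 (SE 0.0834, adjusted p = 3.3e-06), and E2f2, also an activator, fell by 0.72 (SE 0.07, adjusted p = 7.4e-07), as E2f1 did by 0.34 (SE 0.0832, adjusted p = 0.0035). E2f1 fell in S38A (-0.48, adjusted p = 0.035) and S38D (-0.68, adjusted p = 0.0024), and in WT its change was 0.13 (adjusted p = 0.53). The S38A fall was not called by limma-voom (adjusted p = 0.055), under spike-in scaling (0.067) or without any one S38A library (0.059 to 0.25). In asynchronous cells 2 were higher and 0 lower in each mutant line. These were E2f2 (0.75, SE 0.12, adjusted p = 0.0004) and the repressor E2f7 (0.96, SE 0.235, adjusted p = 0.0086) in S38A, and E2f1 (0.55, SE 0.144, adjusted p = 0.026) and E2f3 (0.51, SE 0.148, adjusted p = 0.041) in S38D. Under spike-in scaling 0 of the 10 were called in either line, and E2f1 and E2f3 were not called in S38D with only the groups compared (adjusted p = 0.25 and 0.32), without S38D asynchronous replicate 1 (0.34 and 0.36, adjusted p = 0.14 and 0.23) or without either asynchronous WT library. E2f3 was not called by DESeq2 either (adjusted p = 0.16). Over all genes, spike-in scaling called 31.7% in asynchronous S38A and 13% in asynchronous S38D, each against WT. E2f7 was also not called in S38A by DESeq2 (adjusted p = 0.095) or without WT or S38A asynchronous replicate 1 (0.10 and 0.053).

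Of 6 genes for CDK activation 0 were higher and 2 lower in mitotic cells, Wee1, the inhibitory kinase of CDK1 and CDK2 (-0.48, SE 0.0918, adjusted p = 0.00056), and Mnat1, a subunit of the CDK-activating kinase (-0.37, SE 0.0795, adjusted p = 0.0013). In asynchronous S38A cells 3 were higher than in WT, among them Wee1 (0.62, SE 0.157, adjusted p = 0.01) and the phosphatase gene Cdc25a (0.40, SE 0.111, adjusted p = 0.017), and in S38D 1, Cdc25a (0.49, SE 0.111, adjusted p = 0.012). Cdc25a was -0.05 in S38A and 0.11 in S38D under spike-in scaling and was not called there or without either asynchronous WT library, in S38A without either asynchronous S38A library (adjusted p = 0.056 and 0.08), or in S38D with only the groups compared (adjusted p = 0.22). Wee1 in S38A was 0.18 under spike-in scaling (adjusted p = 0.46) and had an adjusted p of 0.058 by DESeq2, 0.098 without WT asynchronous replicate 2 and 0.056 without S38A asynchronous replicate 2.

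Of 12 genes for turnover of G1 cyclins and inhibitors 2 were higher and 3 lower in mitotic cells, near the share of all genes. Fbxw7, the ubiquitin ligase adaptor that recognises cyclin E, fell by 0.67 (SE 0.0927, adjusted p = 2.8e-05), Cul1, the scaffold of its ligase, rose by 0.45 (SE 0.0704, adjusted p = 9.8e-05), and the deubiquitinase gene Usp2 fell by 0.41 (SE 0.122, adjusted p = 0.012). In asynchronous S38A cells 4 were lower and 0 higher, among them Cul1 (-0.61, SE 0.124, adjusted p = 0.0026) and Rbx1, the RING subunit of the same ligases (-0.54, SE 0.13, adjusted p = 0.0072). In asynchronous S38D cells Cul1 was the only call, and it was higher, at 0.50 (SE 0.122, adjusted p = 0.018). Asynchronous cells held Cul1 at 148 and 151 CPM in WT, 95.6 and 101 in S38A, and 188 and 236 in S38D, so the lines stood in separate ranges on either side of WT. In mitotic cells the values were 170 and 168 CPM in WT, 152 and 154 in S38A, and 328 and 282 in S38D. The Cul1 difference in asynchronous S38D cells was 0.14 under spike-in scaling (adjusted p = 0.61), had an adjusted p of 0.27 with only the groups compared and was not called without either asynchronous WT library (0.16 and 0.10). In S38A, Cul1 was not called without S38A asynchronous replicate 1 (adjusted p = 0.052) nor Rbx1 without S38A asynchronous replicate 2 (-0.40, adjusted p = 0.14) or WT asynchronous replicate 1 (0.066), the mitotic rise of Cul1 was 0.26 under spike-in scaling (adjusted p = 0.065), and Usp2 was not called by DESeq2 (adjusted p = 0.06) or without S38A asynchronous or mitotic replicate 2 (0.053 and 0.054).

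Of 11 partners of the pocket proteins 10 were tested, and 0 were higher and 2 lower in mitotic cells. These were Lin37, a subunit of the DREAM complex (-0.68, SE 0.131, adjusted p = 0.00057), and Rbl2, the remaining pocket protein p130 (-0.57, SE 0.217, adjusted p = 0.046). The Rbl2 change was -0.85 in WT, 0.04 in S38A and -0.89 in S38D, none of them called. Rbl2 was scarce, between 2.53 and 7.77 CPM, and was not called by DESeq2, limma-voom or with robust estimation off (adjusted p = 0.18, 0.077 and 0.057), nor with any of 9 libraries left out in turn. In asynchronous S38A cells 2 were higher and 1 lower, the last being Hdac2, a histone deacetylase that pocket proteins recruit (-0.87, SE 0.165, adjusted p = 0.0016), and among the higher the kinase gene Dyrk1a (0.40, SE 0.122, adjusted p = 0.028). Dyrk1a was -0.05 under spike-in scaling (adjusted p = 0.81) and was not called by DESeq2 (adjusted p = 0.074) or without WT asynchronous replicate 1 or 2 or S38A asynchronous replicate 2 (0.13, 0.14 and 0.18). In asynchronous S38D cells 0 were called.

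Of 5 S and G2 cyclin and kinase genes 1 was higher and 3 lower in mitotic cells. Ccna2, cyclin A2, rose by 0.33 (SE 0.0622, adjusted p = 0.00052). Ccnb1, cyclin B1, fell by 0.62 (SE 0.0746, adjusted p = 6.5e-06), as did Ccnf, cyclin F, by 0.34 (SE 0.0922, adjusted p = 0.0073). Ccnf averaged 46.5 CPM in asynchronous and 45.8 in mitotic WT cells, 78.8 and 51 in S38A, and 53.6 and 41.5 in S38D. The Ccna2 rise was 0.15 under spike-in scaling (adjusted p = 0.24). In asynchronous S38A cells 3 were higher, among them Ccnf (0.76, SE 0.159, adjusted p = 0.0032) and Ccnb1 (0.44, SE 0.128, adjusted p = 0.021), and in S38D 0. Under spike-in scaling neither was called (0.31 and -0.01, adjusted p = 0.17 and 0.96), and Ccnb1 was also not called by DESeq2 (adjusted p = 0.053) or with any asynchronous WT or S38A library left out (0.06 to 0.13).

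Among themselves the 9 tested genes gave correlations from -0.740 to 0.826 over the 12 libraries. The highest Pearson correlation of log2 CPM was 0.826 for Ccnd3 with Cdk4, and it was 0.816 without replicate 1 of S38D asynchronous and of WT mitotic cells. Cdk2 with Rb1 gave 0.737 (0.699 without) and Cdk2 with Ccne1 0.716 (0.432 without). Ccnd2 with Ccne2 gave the lowest, -0.740 (-0.774 without). Ccnd3 with Cdk2 went from -0.614 to 0.070 when both libraries were left out. Of the 36 pairs these are a description over libraries that share lines and states.

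Among 6827 other genes whose mean reached 10 CPM, Ccnd2 was most like Tmem158 (r = 0.978 over 12 libraries), Gclm (0.947) and Mtdh (0.943). Tmem158 stood at 92.9 and 93.9 CPM in asynchronous WT cells, 23.4 and 20.7 in S38A and 29.7 and 30.4 in S38D, and at 119 and 106, 37.7 and 36.3, and 69.5 and 72.5 CPM in mitotic cells of the same lines. It thus shared the order of groups with Ccnd2, WT above mitotic S38D above the rest. Cdk6 was most like the tubulin gene Tuba1a (0.964), the surrogate light chain gene Vpreb3 (0.963) and Limd2 (0.960), and Ccnd3 most like Ap1s1 (0.959), Syngr2 (0.956) and Mbd3 (0.949). For the others the closest genes were Pi4k2b for Rb1 (0.925), Etv4 for Cdk4 (0.901), Atp5f1 for Rbl1 (0.936), Rad9a for Ccne2 (0.928) and Znrd1 for Ccne1 (0.839, and 0.735 without both libraries). Cdk2 was most like Cnot8 (0.986, and 0.942 without both), which stood at 20.3 CPM in S38D asynchronous replicate 1 and 22.3 in WT mitotic replicate 1 and between 42.2 and 66.4 in the other 10 libraries, so both genes were low in the same libraries.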

How the data were processed

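RNA was measured by QuantSeq 3′ mRNA sequencing, which reads transcripts near their 3′ end, so counts do not scale with transcript length. The deposited files hold raw read counts for 51826 genes and 92 ERCC spike-ins in 12 libraries. Per the submitters' processing notes, STAR 2.5.3a, cutadapt 1.12, bcl2fastq 2.16.0.10 and the build mm10 were used. Neither the counting program nor its handling of strand and of reads that match several places is named in them, and the annotation is not given either. Symbols and positions are from GENCODE M21 (GRCm38), where Skp1 is listed as Skp1a, and matched 99.63% of gene identifiers.

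A filter (filterByExpr, minimum count 10, by group) and TMM scaling preceded a fit of 1 mean per group with edgeR 4.0.16 under R 4.3.3, which left 6 residual degrees of freedom (common biological coefficient of variation 0.143). Robust quasi-likelihood F tests of 13 comparisons were adjusted over all genes tested. The SE comes from the F statistic. On counts simulated for 10210 genes, the mean mitotic comparison called 108 of 108 genes changed by 1 and 92 of 92 changed by 2 on the log2 scale, and 8 of 10010 unchanged genes. The simulation gave every gene the same coefficient of variation, 0.143, drew libraries independently and changed none of the least expressed genes. It thus does not give power or false call rates for the real genes, where the SE of Cdk2 in that comparison was 0.421. Calls in comparisons of single groups are not part of these numbers. Alternatives were DESeq2 1.42.0, limma-voom (limma 3.58.1), DESeq2 size factors in edgeR, spike-in scaling, no filter or a 10 CPM minimum, estimation without the robust option, a fit of only the groups compared, a replicate block, each library left out, and replicate 1 of both S38D asynchronous and WT mitotic cells left out.

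All 10 genes are named. For each pathway list the text names at most the 3 genes with the smallest adjusted p in the mean mitotic comparison and at most 2 of those called for each mutant line against WT in asynchronous cells. Similar genes were ranked by Pearson correlation of log2 CPM (prior count 2). The genes, the lists and the alternatives were chosen with earlier results of these data known. Promoters are from RefSeq, where 6 of the 10 genes have an entry (7 starts).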

Additional observations from a re-analysis of the deposited data

Results flagged for a closer look

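Ccnd3 in S38D asynchronous replicate 1 lay far above the other asynchronous libraries, at 501 CPM where the next was 371 and the lowest 327. Its gap to the nearest library was larger than 0.625 of the whole range of the 6 libraries, the 95% limit of Dixon's test. The same test was applied to 18 sets, 9 genes in each of 2 states. Its rate of about 1 chance flag in 20 sets holds for values from 1 population. Here each set pools 3 lines, so the rate does not apply, and a line difference cannot be told apart from an outlying library. The replicates of this group are also the pair that differ most over all genes. Without its replicate, S38D asynchronous replicate 2, the comparison of S38D with WT in asynchronous cells gave 4 calls among the 9 genes in place of 1, and the share of all genes called went from 8.99% to 29.7%.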

How the results depend on the processing

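Under 22 other settings the 117 log2 fold changes of single genes gave 2552 values, of which 2445 kept their direction and their side of the threshold, 58 became called and 47 lost their call. Counted among the 2445 are 120 whose sign differed without a call in either fit. Only spike-in scaling turned a direction with a call: for S38A against WT in asynchronous cells it gave -0.38 for Cdk4 (adjusted p = 0.042) and -0.42 for Ccnd3 (adjusted p = 0.031), where all genes moved to a median of -0.47. The cause of the changes below was not tested. Numbers of the 9 genes called moved by over 1.5 times as follows. For the mitotic change in S38A (1), limma-voom, the 10 CPM filter and only the groups compared gave 2 each, and leaving out replicate 1 of both S38D asynchronous and WT mitotic cells gave 5, where the share of all genes called went from 14.8% to 27.1%. For S38A against WT in asynchronous cells (2), DESeq2 gave 1 and spike-in scaling 5. For S38D against WT in asynchronous cells (1), no filter gave 2 and only the groups compared 0. For S38D against S38A, no filter gave 2 and only the groups compared 0 in asynchronous cells (1), and DESeq2 gave 1 in mitotic cells (2). For S38D against WT in mitotic cells (0), no filter gave 1. For the mitotic change of S38A minus WT (0), DESeq2, DESeq2 size factors, spike-in scaling and no filter gave 1 each, and only the groups compared and both libraries left out 2 each, and for S38D minus WT (0) no filter gave 2. Leaving out 1 library at a time gave from 1 to 3 for the mitotic change in WT and in S38A, 1 to 2 in S38D, 1 to 2 for asynchronous S38A and 1 to 4 for asynchronous S38D against WT, and 0 to 3 for these mutant lines against each other. In mitotic cells it gave 0 to 1 for S38D against WT and 0 to 3 for S38D against S38A. Differences in mitotic change gave 0 to 2 for S38A minus WT and 0 to 3 for S38D minus WT. In such a fit the library left alone in its group takes its spread from the rest. The replicate numbers did not pair the samples over all groups, though replicate differences ran alike in some of them. Of 15 correlations of replicate differences between groups 3 were above 0.1, at 0.549 to 0.786 among S38D asynchronous, WT mitotic and S38A mitotic cells. Another 3 were below -0.1, at -0.399 to -0.362 between these groups and S38A asynchronous cells. With the replicate block 2 genes were called for asynchronous S38D against WT (Ccnd3 added, adjusted p = 0.046), 1 for S38D against WT in mitotic cells (Cdk6, adjusted p = 0.046) and 1 for S38A minus WT (Ccnd3, adjusted p = 0.037), and the block changed no other call. Over all genes the block called 10.5%, 4.99% and 1.47% in these comparisons. Depth limits Rb1, with 312 reads in all, and Ccnd1.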
